A study of Mus musculus with 8 samples.

Results

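Csf1r encodes the receptor tyrosine kinase for 2 cytokines, colony-stimulating factor 1 (gene Csf1) and interleukin-34 (gene Il34). Chromatin accessibility at these 3 genes, of 21887 protein-coding genes in the gene table, was compared across 8 mouse brain ATAC-seq libraries. The genes were chosen by name. Every deposited peak that overlapped one of the gene bodies, extended by 20 kb on both sides, was assigned to that gene. When overlapping peaks of the 8 libraries were joined into regions, 78 of the 443327 regions of the genome lay in the 3 windows. ATAC-seq uses a transposase that inserts sequencing adapters into open DNA, so a peak marks a stretch that was accessible in some of the nuclei.

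All mice had the C57Bl/6J background, and each group had 2 libraries made from aliquots of 50000 nuclei. The PLX chow group received, from postnatal day 20, a chow with a compound that the labels spell PLX5562 and that was given to remove microglia. The dorsal lateral geniculate nucleus (dLGN), a thalamic nucleus that relays visual input to the cortex, was microdissected at postnatal day 32. The control chow group had the same age, feeding period and tissue. The Fn14 knockout (KO) group lacked Fn14, a receptor for the cytokine TWEAK, and its wild-type (WT) littermates carried the receptor. These untreated mice gave, at postnatal day 27, frozen coronal sections with cortex, hippocampus and dLGN. The dLGN and section libraries thus differed in brain region, age and tissue handling together, and these cannot be told apart. The labels give no number of mice per library and no count of the microglia left after PLX chow.

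CSF1R signalling keeps microglia alive, and inhibitors of its kinase are widely used to deplete them. In the brain the receptor is made mainly by microglia, interleukin-34 mainly by neurons of the forebrain, and CSF1 by glia and some neurons. Transcription of Csf1r in myeloid cells depends on the factor PU.1, encoded by Spi1, and on an enhancer inside an early intron that is known as FIRE.

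List lengths ran from 248989 deposited peaks in PLX chow 1 to 299822 in KO 1, and the read depth is unknown. For counts and ranks every library was cut to its 192168 strongest merged regions by the authors' −log10 p, the length of the shortest list. The median −log10 p of these equal lists ranged from 9.80 to 12.4 in the dLGN libraries and from 6.53 to 9.64 in the sections. Of 10 microglial marker genes, the summed number of regions was 40 to 42 in PLX chow, 45 to 46 in control chow and 65 to 76 in the sections. Itgam, an integrin gene of microglia, had 0 regions in both PLX chow libraries, in control chow 2 and in WT 1. Gpr34, a lysophospholipid receptor gene of microglia, had 0 in PLX chow 2 and in both control chow libraries. At Tnfrsf12a, the gene of Fn14, no deposited peak overlapped the gene body in either KO library, against 1 peak in each WT library (−log10 p 13.6 and 8.02) and 1 in each dLGN library. In bulk nuclei, fewer cells of a type and less open chromatin per cell cannot be told apart.

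The receptor gene Csf1r (gene ID 12978) lies on chromosome 18 at 61105572 to 61131139 (mm10) and spans 25568 bp. Its window held 23 regions, of which 8 touched the gene body, 11 were found in 1 library only and 1 was found in all 8 libraries. The window reaches into the neighbouring protein-coding gene Hmgxb3, which encodes an HMG-box protein, and holds the lncRNA gene Gm52352, the miRNA gene Mir6983 and the snRNA gene Gm26403. The number of deposited peaks was 6 and 3 in PLX chow 1 and 2, 9 in each control chow library, 17 and 14 in KO 1 and 2 and 11 in each WT library. PLX chow 2 had the fewest peaks and KO 1 the most.

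**Figure D1:**
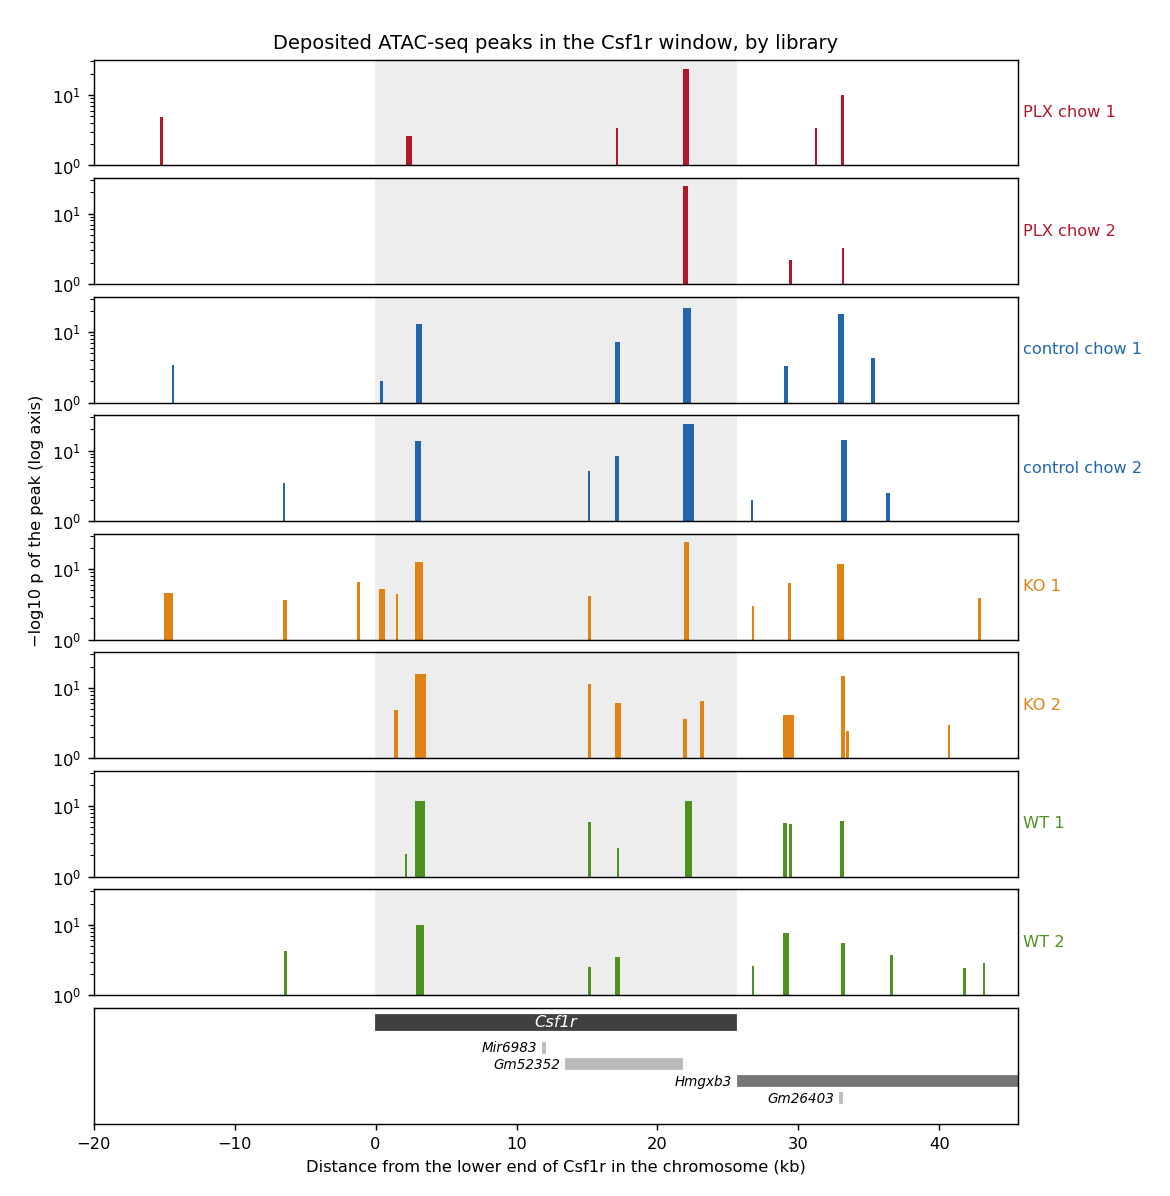
Deposited peaks in the Csf1r window in each library. The x axis is the distance from the lower chromosomal end of the gene in kb, the y axis is the authors' −log10 p on a log axis, each bar is 1 peak drawn at its width, the grey band is the gene body and the bottom track shows the annotated genes. Both PLX chow libraries lack a peak in the region that starts 2787 bp inside the gene, where the other 6 libraries have one, and both have a peak in the region that starts 21797 bp inside it.

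The region near the lower end of the gene separated the PLX chow libraries from every other library. It spans 61108359 to 61109129, 2787 to 3557 bp inside the gene body. Neither PLX chow library had a peak there, against a −log10 p of 13.1 in control chow 1 and 13.8 in control chow 2, and the section libraries had 12.8 (KO 1), 15.4 (KO 2), 11.9 (WT 1) and 9.81 (WT 2). The fold enrichment of the 6 peaks, the authors' ratio over local background, lay between 3.68 and 4.08. Their percentile rank within the equal lists, where 100 is the strongest region, lay between 51.4 in control chow 1 and 68.8 in KO 2. The 6 libraries thus had peaks of middle strength and similar fold. In the control chow libraries the region covered 61108399 to 61108879. The nearest peak of a PLX chow library lay 261 bp from that stretch, in PLX chow 1, with a −log10 p of 2.63 and a fold of 2.01. Exon and intron boundaries were not used here, and whether this region is the FIRE enhancer was not tested.

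A region was called for one group against another when all libraries of the first had a peak in it and no library of the second had a peak overlapping it by 1 bp or more. Of the 4 Csf1r regions with a peak in both control chow libraries, this 1 was absent from both PLX chow libraries, beside 5.61% of such regions over the genome (8721 of 155552). No region was present in both PLX chow libraries and absent from both control chow libraries, of 2 tested, beside 3.22% over the genome. The Csf1r region was strong within the called set. The median of the lower control value over the 8721 called regions was 3.83, and 49 of them (0.562%) reached the 13.1 of Csf1r. Where a −log10 p of 10 or more was required in both control libraries, 0.192% of regions were called (166 of 86300), and the Csf1r region was 1 of them. The 13.1 is the region's own value, and the limit of 10 was chosen with earlier results known. Both shares are therefore descriptions only.

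The same question was then asked of all 6 other libraries, a rule added after the values were seen. Over the genome 1.94% of the regions with a peak in all 6 had none in either PLX chow library (1493 of 76995), and 5.89% of gene windows held such a region. With a −log10 p of 5 or more in each of the 6, the share was 0.486% (285 of 58616), and 244 of the 21887 gene windows (1.11%) held such a region. Csf1r was among them, with 1 of its 2 regions. Csf1 and Il34 had 0 called under either rule, of 6 regions tested at each gene without the strength limit.

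The strongest peak inside the receptor gene did not follow this pattern. The region at 61127369 to 61128171 starts 21797 bp inside the gene. Its −log10 p was 23.7 and 24.4 in PLX chow 1 and 2 and 22.1 and 23.7 in control chow 1 and 2. It had 24.3 in KO 1, 3.61 in KO 2 and 11.9 in WT 1, and WT 2 had no peak there. On this scale the 4 dLGN libraries and KO 1 were at a similar level, while the 3 other section libraries were lower or had none. By percentile rank the region was at 65.5 to 73.3 in the dLGN, 76.6 in KO 1, 6.94 in KO 2 and 67.1 in WT 1, inside the dLGN range. Its percentile rank averaged 72.4 ± 1.21 in PLX chow and 68.4 ± 4.19 in control chow (SD, n = 2 each), a difference of 4.01 (2-sided exact permutation p = 0.33, the smallest that 2 against 2 libraries can give). Both PLX chow libraries were above both control chow libraries, as were 15.7% of the regions present in all 4. With libraries without the region at percentile 0, it averaged 70.4 ± 3.42 in the dLGN and 37.7 ± 39.8 in the sections (SD, n = 4 each; exact permutation p = 0.286).

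The other Csf1r regions were weaker or less often shared. Inside the gene and over Gm52352, the region at 61122561 to 61122985 had a −log10 p of 3.40 in PLX chow 1 and no peak in PLX chow 2, against 7.36 and 8.39 in control chow 1 and 2. In the sections it had 6.04 (KO 2), 2.59 (WT 1) and 3.53 (WT 2), and KO 1 had none. A region at 61120617 to 61120854 had no peak in either PLX chow library and 5.21 in control chow 2 only, with 4.22, 11.4, 6.04 and 2.54 in KO 1, KO 2, WT 1 and WT 2. At the lower end of the gene body, the region at 61105850 to 61106238 was found in control chow 1 (2.004) and KO 1 (5.24) and in no other library. The gene table has no strand for Csf1r, so neither end was taken as its start.

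The only region of the window found in all 8 libraries lay outside the receptor gene. It was at 61138282 to 61139190, within Hmgxb3 and over Gm26403. Its −log10 p was 10.0 and 3.22 in PLX chow 1 and 2, against 17.9 and 14.2 in control chow 1 and 2, and 11.7, 14.4, 6.12 and 5.43 in KO 1, KO 2, WT 1 and WT 2. On this scale PLX chow 2 was the lowest of the 8 and control chow 1 the highest, while KO 2 had the highest percentile rank (67.3). The percentile rank was lower in both PLX chow libraries (49.03 and 4.57) than in both control chow libraries (60.2 and 59.5; exact permutation p = 0.33). Of the 10 Csf1r regions in the equal lists of the chow libraries, 3 ranked lower in both PLX chow libraries than in either control chow library and 1 ranked higher, beside 11.2% and 10.7% of regions over the genome. In these dLGN libraries the 10 microglial markers had 0 members with more regions in both PLX chow libraries and 2 with fewer, beside 8.99% and 8.34% of all genes. The 2 with fewer were P2ry12, a purinergic receptor gene (14 and 12 regions in PLX chow, 15 and 15 in control chow), and Siglech, a lectin gene (2 and 2 in PLX chow, 4 and 3 in control chow). Whether the number of microglia sets the Csf1r values was not tested.

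The number of regions at Csf1r in the equal lists was 6 and 2 in PLX chow 1 and 2, 5 and 6 in control chow 1 and 2, 10 and 8 in KO 1 and 2 and 8 and 10 in WT 1 and 2. In this extended window the sections were above every dLGN library, whereas the diets overlapped each other and the genotypes overlapped each other. PLX chow averaged 4 ± 2.83 regions and control chow 5.5 ± 0.71 (SD, n = 2 each; difference −1.5, exact permutation p = 1), beside 8.34% of genes that were lower and 8.99% that were higher in both PLX chow libraries. KO and WT both averaged 9 ± 1.41 (SD, n = 2 each; exact permutation p = 1). The dLGN averaged 4.75 ± 1.89 and the sections 9 ± 1.15 (SD, n = 4 each; difference −4.25, exact permutation p = 0.0286, adjusted over 19689 genes 0.171). Over the genome 9.99% of genes were lower in all 4 dLGN libraries and 6.74% higher. The exact permutation test gave 3294 genes with an unadjusted p under 0.05 and 0 with an adjusted p under 0.05. All 3294 tied at 0.0286, the smallest p that 4 against 4 libraries can give in this test. No adjusted p could therefore fall under 0.171, and the test here restates that the libraries do not overlap. PLX chow alone against the sections differed by −5 regions (exact permutation p = 0.0667, the smallest possible, adjusted 0.369), with 15.5% of genes lower in both PLX chow libraries than in any section. Inside the gene body, uncut lists held 3 and 1 regions in PLX chow 1 and 2 and 4 in each control chow library. KO 1 and 2 held 5 and 6 there and WT 1 and 2 held 5 and 3. The tissues thus overlapped inside the gene, with WT 2 under both control chow libraries.

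**Figure D2:**
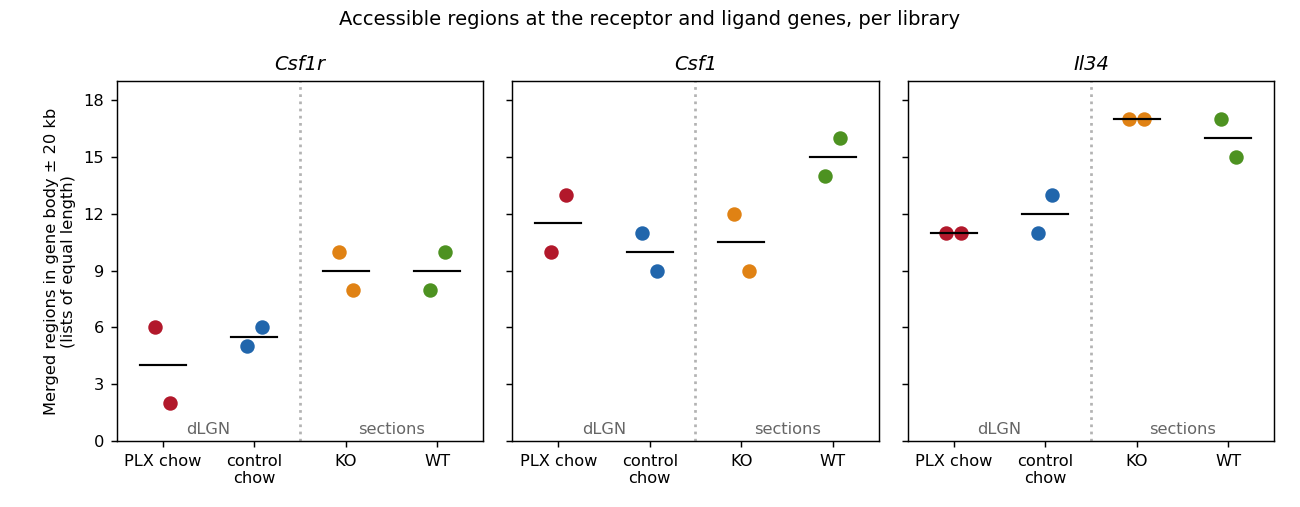
Number of merged regions in each gene body extended by 20 kb, in lists of equal length. The y axis is the count, each point is 1 library, the bar is the mean of its group, and the dotted line separates the dLGN from the section libraries. At Csf1r and Il34 all 4 section libraries lie above all 4 dLGN libraries (Csf1r 2 to 6 in the dLGN and 8 to 10 in the sections, Il34 11 to 13 in the dLGN and 15 to 17 in the sections), and at Csf1 they overlap.

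Between the dLGN and the sections, 2 of 21 Csf1r regions ranked lower in all 4 dLGN libraries and 0 higher, with absent regions at percentile 0 (over the genome 9.89% lower and 12.2% higher). They were the region near the lower end, which the control chow libraries hold, and a region within Hmgxb3 at 61134449 to 61135265. The Hmgxb3 region was in none of the 4 equal dLGN lists, with no deposited peak in PLX chow 1 and control chow 2 and peaks of 2.22 in PLX chow 2 and 3.35 in control chow 1 under the limit, and had percentile ranks of 30.3, 13.7, 39.8 and 56.7 in KO 1, KO 2, WT 1 and WT 2. Each had an exact permutation p of 0.0286 (adjusted 0.129). In the chow groups alone, the region near the lower end ranked at 51.4 and 58.5 in control chow, still under the lowest section library (59.4). Of only 2 Csf1r regions with a peak in all 4 dLGN libraries, 0 had none in any section (15.7% of regions over the genome). Of only 4 with a peak in all 4 sections, 0 had none in any dLGN library (17.6%). Of the microglial markers, Trem2, Gpr34 and Fcrls had fewer regions in every dLGN library than in any section, and no marker had more, beside 9.99% and 6.74% of all genes. Whether this difference in microglial markers accounts for the Csf1r counts was not tested.

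Between the genotypes the receptor gene had 1 called region. Of 6 Csf1r regions with a peak in both KO libraries, 1 had none in either WT library, beside 10.3% over the genome. It lay inside the gene at 61106903 to 61107192 and was weak, with −log10 p of 4.48 and 4.89. None of 5 regions was present in both WT libraries and absent from KO, beside 4.09%. The region near the lower end averaged a percentile rank of 64.1 ± 6.71 in the KO libraries and 66.4 ± 0.90 in the WT libraries (SD, n = 2 each; exact permutation p = 1). Of 18 Csf1r regions 1 ranked lower and 2 ranked higher in both KO libraries, beside 11.1% and 12.7% over the genome. The region that ranked lower was the one at 61134449 to 61135265 described above, and those that ranked higher were the called region and the region within Hmgxb3 that all 8 libraries hold. That region had percentile ranks of 56.8 and 67.3 in KO 1 and 2, against 43.2 in each WT library (exact permutation p = 0.33, the smallest possible). The strongest region inside the gene overlapped between the genotypes, with ranks of 76.6 and 6.94 in KO 1 and 2, against 67.1 in WT 1 and no peak in WT 2.

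The ligand gene Csf1 (gene ID 12977) lies on chromosome 3 at 107741048 to 107760469 (mm10), on the minus strand, and spans 19422 bp, so its start is the upper end. The lncRNA gene Gm40121 spans the whole window, and no other protein-coding gene overlaps it. The window held 26 regions, of which 10 touched the gene body, 4 were found in all 8 libraries and 4 in 1 library. The deposited peaks numbered 12 and 14 in PLX chow 1 and 2, 16 and 12 in control chow 1 and 2, 20 and 17 in KO 1 and 2 and 19 and 18 in WT 1 and 2.

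The promoter of Csf1 is shown because the strongest peak of the window covered all of it in each of the 8 libraries. The sequence is RefSeq's for GRCm38.p6, the mm10 build, from 250 bases before to 50 bases after the gene start (chr3:107760420-107760719, minus strand). Capitals mark matches to the motifs GGGCGG, the GC box of Sp factors, and to a loose NF-kB site, GGGA followed by 4 free bases and CC. Both strands were searched.
Csf1 promoter: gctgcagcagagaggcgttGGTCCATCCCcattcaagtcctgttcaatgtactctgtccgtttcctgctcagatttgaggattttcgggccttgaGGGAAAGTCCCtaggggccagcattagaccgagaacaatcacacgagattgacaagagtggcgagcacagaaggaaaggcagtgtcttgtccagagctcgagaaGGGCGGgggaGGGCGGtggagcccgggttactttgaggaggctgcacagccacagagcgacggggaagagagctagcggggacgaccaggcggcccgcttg
GGGCGG matched at bases 200 to 205 and 210 to 215, counted from 1 at the 5′ end, which is 51 and 41 bases before the gene start. The NF-kB pattern matched at bases 20 to 29, 96 to 105 and 97 to 106, of which the last 2 overlap. GGGCGG was found in 35.7% and the NF-kB pattern in 20.7% of the 32851 promoters of the table. There was no match in this window to CCAAT (the CCAAT box, found in 37.4% of promoters), TATAAA (the TATA box, 13.6%), TGANTCA (the AP-1 site, 7.81%), TGACGTCA (the cAMP response element, 1.79%) or GAGGAAGT (a PU.1 site, 3.20%). The GC content was 58.7%, against a median of 52.7%.

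The region over this promoter, at 107759750 to 107760854, had a −log10 p of 54.7 and 65.0 in PLX chow 1 and 2, 70.9 and 81.3 in control chow 1 and 2, 74.6 and 49.8 in KO 1 and 2 and 32.4 and 42.1 in WT 1 and 2. The fold enrichment ran from 4.86 in WT 1 to 8.26 in control chow 2. It was present in every library, and by −log10 p and fold it was strongest in control chow 2 and weakest in WT 1. By percentile rank it was highest in KO 1 (93.0) and lowest in PLX chow 1 (85.6). All 8 libraries placed 1 summit between 14 bases before and 39 bases after the gene start and another 199 to 252 bases inside the gene. The summit at the start was the stronger in PLX chow 2, control chow 2, KO 1, KO 2 and WT 2, and the inner one in the other 3 libraries. PLX chow 1, PLX chow 2, control chow 2 and WT 2 had these 2 summits only, while control chow 1, KO 1 and KO 2 had 3 summits and WT 1 had 4, the further ones 400 to 614 bases inside the gene.

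The percentile rank of the promoter region averaged 87.2 ± 2.17 in PLX chow and 88.3 ± 2.67 in control chow (SD, n = 2 each; difference −1.10, exact permutation p = 0.667). In KO it averaged 92.0 ± 1.52 and in WT 89.4 ± 3.45 (SD, n = 2 each; exact permutation p = 0.667). The dLGN averaged 87.7 ± 2.08 and the sections 90.7 ± 2.63 (SD, n = 4 each; difference −2.97, exact permutation p = 0.143, adjusted 0.242). The groups overlapped in all 3 comparisons. Among regions present in all libraries compared, 19.2% over the genome ranked lower in all 4 dLGN libraries and 17.4% higher.

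**Figure D3:**
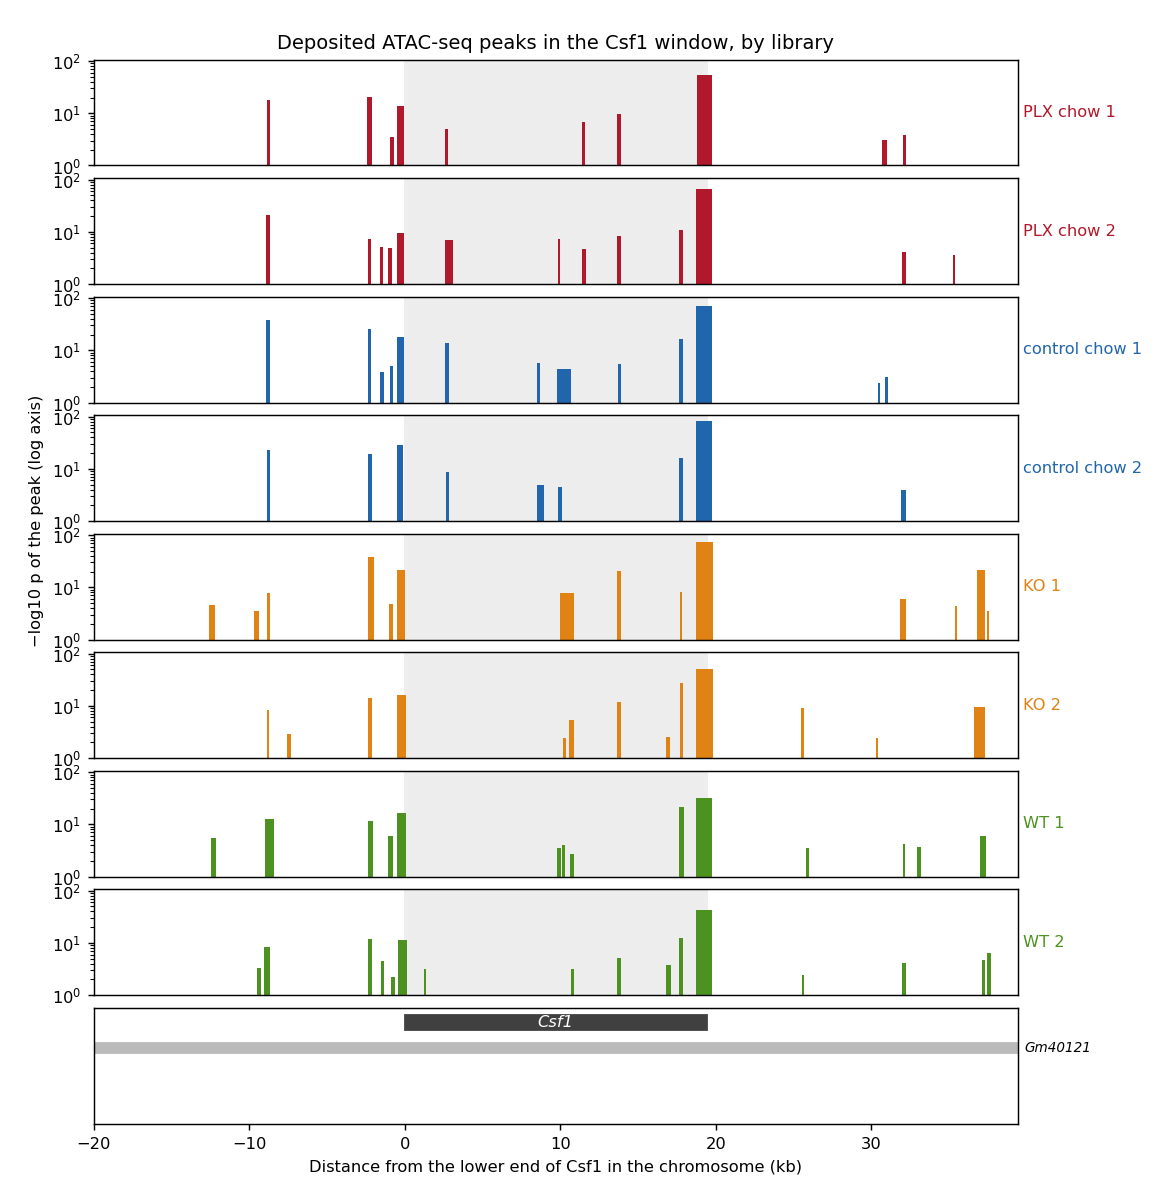
Deposited peaks in the Csf1 window in each library, with the same axes and tracks as the receptor map; the gene start is at the right edge of the grey band. The peak over the gene start is the strongest in all 8 libraries (−log10 p 32.4 to 81.3), and the region that starts 2575 bp inside the lower end has a peak in the 4 dLGN libraries only.

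The 3 other Csf1 regions found in all libraries lay at or beyond the lower end, which is the 3′ end of this gene. The region over that end, at 107740533 to 107741215, had a −log10 p of 13.6 and 9.64 in PLX chow 1 and 2, against 17.6 and 28.7 in control chow 1 and 2, and 11.3 to 21.4 in the sections. The region 8384 bp beyond it had 17.9 and 20.9 in PLX chow, 37.5 and 23.3 in control chow, 7.69 and 8.17 in KO and 12.5 and 8.39 in WT. All dLGN values of this region were above all section values. By rank the sections overlapped the dLGN, with 65.4 to 76.4 in the dLGN and 39.4 to 68.5 in the sections. The region 1983 bp beyond the end had 20.8 and 7.17 in PLX chow, 25.5 and 19.1 in control chow, 37.6 and 14.4 in KO and 11.9 and 12.1 in WT. PLX chow 2 was the lowest there and KO 1 the highest.

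At Csf1, 1 region was called between the tissues in each direction. The region at 107743623 to 107744130, inside the gene body, had −log10 p values of 4.94 and 6.95 in PLX chow 1 and 2 and 13.7 and 8.55 in control chow 1 and 2, and no section library had a peak there. It was 1 of 5 Csf1 regions tested for presence in the dLGN, beside 15.7% over the genome. The reverse held for a region beyond the gene start, at 107777675 to 107778401, with no peak in any dLGN library and 21.4, 9.37, 6.04 and 4.80 in KO 1, KO 2, WT 1 and WT 2. It was 1 of 7 tested for presence in the sections, beside 17.6%, and both counts were near the genome's share. With absent regions at percentile 0, the first averaged 40.0 in the dLGN and 0 in the sections, the second 0 in the dLGN and 51.5 in the sections (exact permutation p = 0.0286 and adjusted 0.129 for each). They were the only 2 of 24 Csf1 regions whose ranks did not overlap between the tissues, beside 9.89% lower and 12.2% higher over the genome.

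Between the diets the Csf1 differences went both ways. At 107749544 to 107749998, inside the gene, neither PLX chow library had a peak, against 5.63 and 4.97 in control chow 1 and 2. At 107752442 to 107752691 PLX chow 1 and 2 had 6.87 and 4.68 and neither control chow library had a peak. Both regions were absent from all sections, and each was the only call in its direction, of 8 and 9 regions tested (5.61% and 3.22% over the genome). A region toward the gene start, at 107758685 to 107758973, had no peak in PLX chow 1 and 11.01 in PLX chow 2, against 16.4 in both control chow libraries, and 8.26 to 27.2 in the sections. Of 15 Csf1 regions, 5 ranked lower in both PLX chow libraries and 3 higher, beside 11.2% and 10.7% over the genome.

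Csf1 had 10 and 13 regions in PLX chow 1 and 2, 11 and 9 in control chow 1 and 2, 12 and 9 in KO 1 and 2 and 14 and 16 in WT 1 and 2. WT 2 had the most, and both WT libraries were above both KO libraries. PLX chow averaged 11.5 ± 2.12 and control chow 10 ± 1.41 (SD, n = 2 each; exact permutation p = 0.667). KO averaged 10.5 ± 2.12 and WT 15 ± 1.41 (SD, n = 2 each; difference −4.5, exact permutation p = 0.33, the smallest possible, adjusted 1), beside 11.6% of genes lower in both KO libraries. With the 100000 strongest regions of each list this difference was 0.5. The dLGN averaged 10.8 ± 1.71 and the sections 12.8 ± 2.99 (SD, n = 4 each; exact permutation p = 0.343). No Csf1 region was called between the genotypes. Tested were 8 with a peak in both KO libraries and 9 with a peak in both WT libraries, beside shares of 10.3% and 4.09% over the genome.

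Among the Csf1 regions that differed in rank between the genotypes, the one at 107754711 to 107754939 had values of 20.2 and 11.7 on the −log10 p scale in KO 1 and 2, against no peak in WT 1 and 5.23 in WT 2. The region beyond the 3′ end described above, starting at 107731997, ranked at 39.4 and 47.3 in KO and 68.5 and 59.6 in WT. Of 20 Csf1 regions 1 ranked lower and 3 higher in both KO libraries, beside 11.1% and 12.7% over the genome.

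The ligand gene Il34 (gene ID 76527) lies on chromosome 8 at 110741829 to 110805949 (mm10) and spans 64121 bp. Its window held 29 regions, of which 14 touched the gene body, 6 were found in all 8 libraries and 7 in 1 library. The window overlaps the protein-coding genes Mtss2, which encodes a protein that binds membranes and actin, below the gene, and Sf3b3, a splicing factor subunit, above it. The lncRNA genes Gm15894, Gm39250 and Gm15895 overlap the gene body. The deposited peaks numbered 12 and 18 in PLX chow 1 and 2, 15 and 20 in control chow 1 and 2, 32 and 22 in KO 1 and 2 and 22 and 20 in WT 1 and 2.

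**Figure D4:**
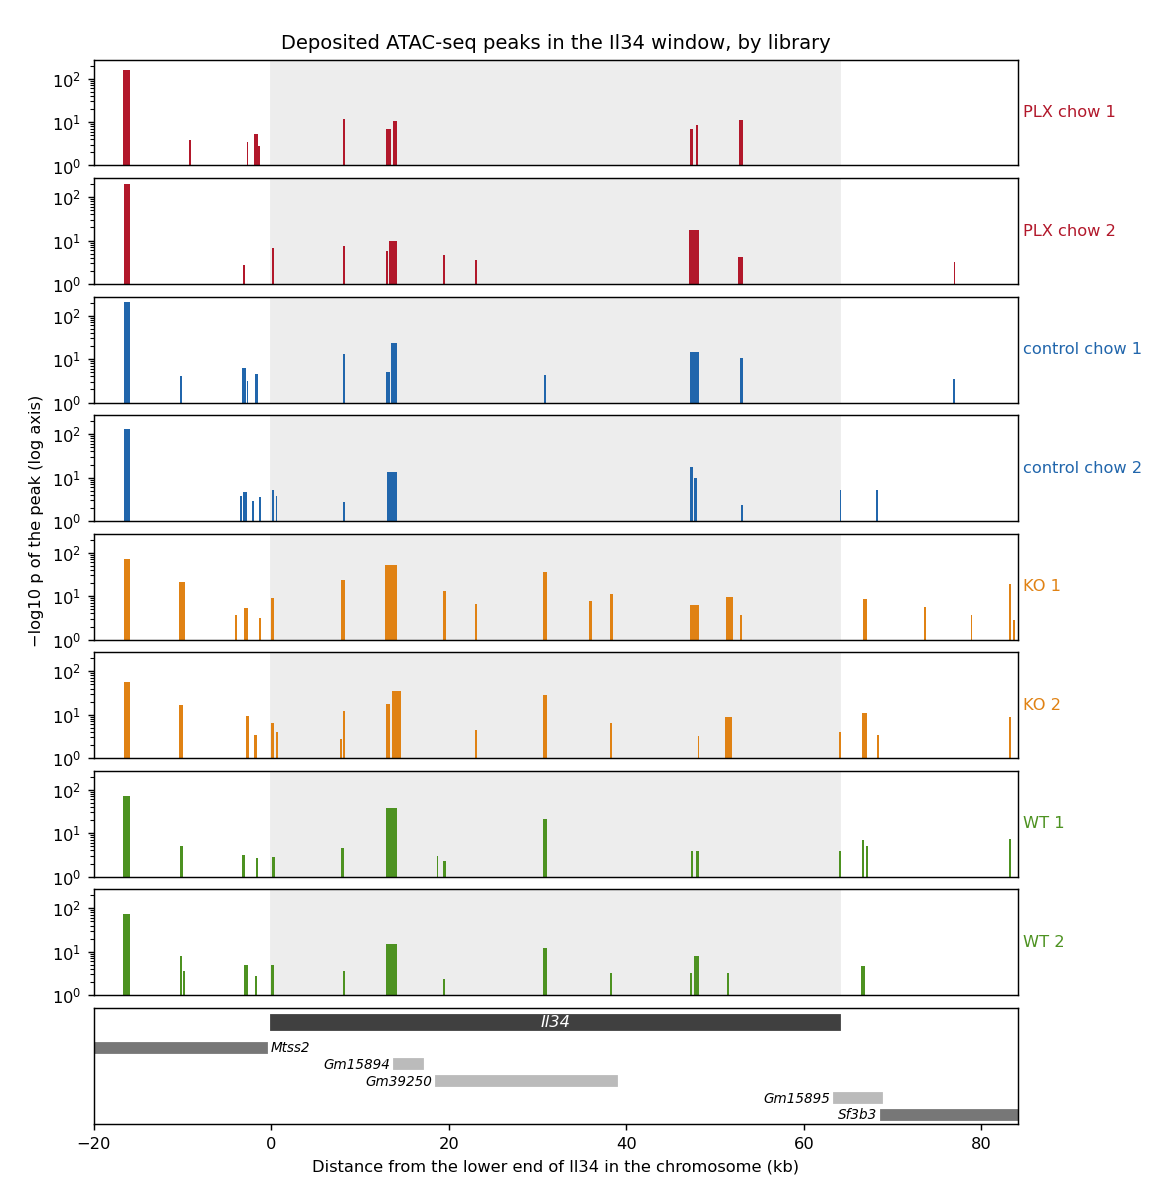
Deposited peaks in the Il34 window in each library, with the same axes and tracks as the receptor map. The strongest bar on the left is a peak within Mtss2, and inside Il34 the region that starts 30622 bp from the lower end has a weak peak in control chow 1 (−log10 p 4.26), none in the other 3 dLGN libraries and taller peaks in the 4 section libraries (11.9 to 36.2).

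The strongest peak of this window lay within Mtss2, 15905 bp below Il34, and its link to either gene was not tested. It was at 110725099 to 110725924 with a −log10 p of 162 and 203 in PLX chow 1 and 2, 208 and 130 in control chow 1 and 2, 69.9 and 58.0 in KO 1 and 2 and 71.1 and 75.7 in WT 1 and 2. In percentile rank it lay between 92.4 and 97.1 in all libraries. At the ends of the Il34 gene body peaks were weak. The region 26 bp inside the lower end had 6.80 in PLX chow 2, 5.33 in control chow 2 and 2.85 to 8.94 in the sections, and none in PLX chow 1 or control chow 1. The region over the upper end was found in control chow 2 (5.21), KO 2 (4.06) and WT 1 (3.97) only.

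Inside Il34, 2 regions ranked higher in every section library than in any dLGN library. The region at 110754707 to 110756406, which reaches into Gm15894, had a −log10 p of 10.7 and 9.80 in PLX chow 1 and 2, 23.1 and 13.2 in control chow 1 and 2, 51.6 and 34.3 in KO 1 and 2 and 37.4 and 15.3 in WT 1 and 2. On that scale the tissues overlapped, with control chow 1 above WT 2. The percentile rank of the region was 50.1 to 66.6 in the dLGN and 76.7 to 89.4 in the sections, with no overlap. The means were 56.4 ± 7.51 in the dLGN and 85.2 ± 5.85 in the sections (SD, n = 4 each), a difference of −28.8 (exact permutation p = 0.0286, adjusted over 68564 regions 0.0780). The exact permutation test gave 25107 regions with an unadjusted p under 0.05 and 0 with an adjusted p under 0.05. All 25107 tied at 0.0286, the smallest possible p, so no adjusted p could fall under 0.0780. Over the genome 19.2% of the 68564 regions ranked lower in all dLGN libraries.

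The second region, at 110772451 to 110772960 over Gm39250, had 36.2, 28.5, 21.03 and 11.9 in KO 1, KO 2, WT 1 and WT 2 and a fold enrichment of 4.52 to 7.63. In the dLGN it had 4.26 in control chow 1 and no peak in the other 3 libraries. With absent regions at percentile 0 it averaged 2.35 in the dLGN and 79.5 in the sections (exact permutation p = 0.0286, adjusted 0.129). The same test gave that p for a region within Mtss2 at 110731437 to 110732085 (1.81 in the dLGN and 59.2 in the sections) and for a region beyond the upper end at 110808279 to 110809027 (0 in the dLGN and 47.1 in the sections). The region beyond the upper end, over Gm15895, had no peak in any dLGN library and 8.71, 11.1, 6.91 and 4.80 in KO 1, KO 2, WT 1 and WT 2. It was 1 of 10 Il34 regions tested for presence in all sections, and 0 of 7 were found in the dLGN only, beside 17.6% and 15.7% over the genome. In all, 4 of 27 Il34 regions ranked lower in every dLGN library and 0 higher, beside 9.89% and 12.2% over the genome.

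Other Il34 regions leaned to the dLGN without separating the tissues. The region at 110788921 to 110790033 had 8.78 and 17.7 in PLX chow, 14.4 and 18.0 in control chow, 6.36 and 3.18 in KO and 3.97 and 7.77 in WT. Every dLGN value was above every section value on the −log10 p scale, while the ranks overlapped, with 45.2 to 66.2 in the dLGN and a highest section rank of 57.6 in WT 2. The region at 110794418 to 110794976 had 11.4 and 4.13 in PLX chow, 10.5 and 2.36 in control chow and 3.69 in KO 1, and no peak in the other 3 sections.

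Il34 had 11 regions in each PLX chow library, 11 and 13 in control chow 1 and 2, 17 in each KO library and 17 and 15 in WT 1 and 2. The dLGN averaged 11.5 ± 1 and the sections 16.5 ± 1 (SD, n = 4 each; difference −5, exact permutation p = 0.0286, adjusted 0.171), and no dLGN library reached the lowest section. PLX chow alone against the sections differed by −5.5 (exact permutation p = 0.0667, adjusted 0.369). With the 50000 strongest regions of each list, the differences between dLGN and sections were −2 at Il34 and −0.25 at Csf1r. In the same libraries the summed regions of 5 cortical or hippocampal neuron markers were 41 to 48 in the dLGN and 55 to 64 in the sections, and those of 5 general neuron markers 206 to 225 in the dLGN and 253 to 315 in the sections. Of these lists, 3 cortical or hippocampal markers and 3 neuron markers had fewer regions in every dLGN library, while 1 cortical or hippocampal marker and 0 neuron markers had more, beside 9.99% and 6.74% of all genes. The part of tissue composition in the Il34 difference was not tested.

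Between the diets Il34 showed no called region in either direction, of 7 with a peak in both control chow libraries and 5 with a peak in both PLX chow libraries, beside 5.61% and 3.22% over the genome. PLX chow averaged 11 ± 0 regions and control chow 12 ± 1.41 (SD, n = 2 each; exact permutation p = 1). The region starting at 110788921 had the highest mean percentile rank inside the gene over the diet libraries. It averaged a percentile rank of 55.7 ± 14.8 in PLX chow and 60.1 ± 7.65 in control chow (SD, n = 2 each; exact permutation p = 1). Of 19 Il34 regions 2 ranked lower in both PLX chow libraries and 0 higher, beside 11.2% and 10.7% over the genome. Those 2 were the one reaching into Gm15894 (51.5 and 50.1 in PLX chow, 66.6 and 57.6 in control chow) and one within Mtss2 near the gene.

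Between the genotypes more Il34 regions ranked higher than lower in KO. Of 23 regions 8 ranked higher and 2 lower in both KO libraries, beside 12.7% and 11.1% over the genome, and each single difference had an exact permutation p of 0.33. The region at 110749600 to 110750131 had values of 23.9 and 12.4 on the −log10 p scale in KO 1 and 2, against 4.61 and 3.58 in WT 1 and 2. The region at 110792938 to 110793880 had 9.81 and 8.67 in KO, against no peak in WT 1 and 3.29 in WT 2. A weak region at 110764769 to 110765013 had 6.68 and 4.51 in KO and no peak in WT, the 1 call among 13 regions tested, beside 10.3% over the genome. The region reaching into Gm15894 averaged a percentile rank of 87.7 ± 2.47 in the KO libraries and 82.7 ± 8.49 in the WT libraries (SD, n = 2 each; exact permutation p = 0.667). KO averaged 17 ± 0 regions and WT 16 ± 1.41 (SD, n = 2 each; exact permutation p = 1), beside 16.4% of genes higher in both KO libraries. The KO lists were also the longest deposited.

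**Figure D5:**
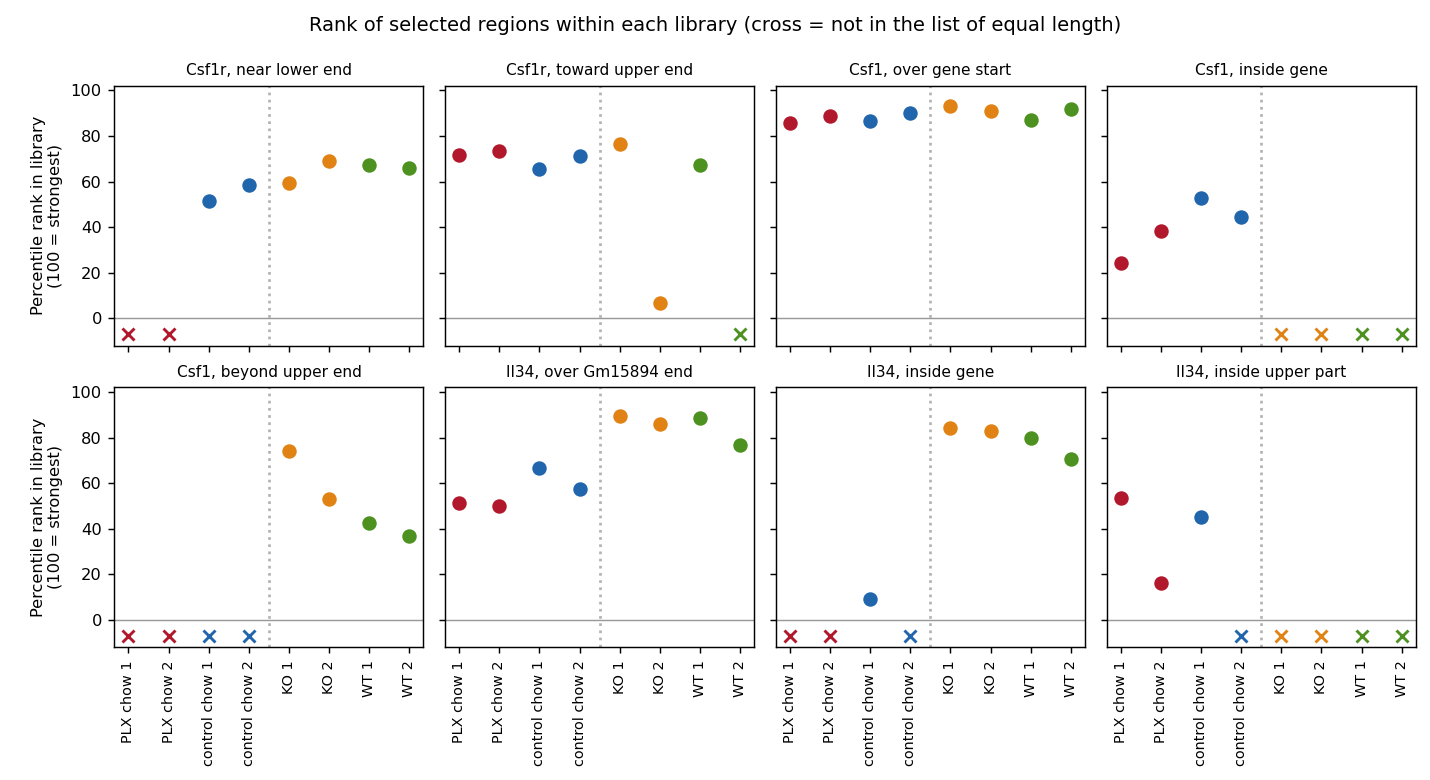
Percentile rank of 8 regions at the 3 genes within the equal lists. The y axis is the rank, where 100 is the strongest region of a library, each point is 1 library, a cross below 0 marks a library whose equal list lacks the region, and the dotted line separates the dLGN from the section libraries. The receptor region near the lower end is missing in both PLX chow libraries and ranks at 51.4 to 68.8 in the other 6, whereas the Csf1 start region ranks at 85.6 to 93.0 in all 8.

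Set side by side, 1 of 4 Csf1r regions, 1 of 8 at Csf1 and 0 of 7 at Il34 were called for control chow. The share over the genome was 5.61%. For PLX chow the calls were 0 of 2, 1 of 9 and 0 of 5, beside 3.22%. Of the 3 genes only Csf1r held a region with a −log10 p of 10 or more in both control chow libraries and no peak in PLX chow. Over the genome 0.192% of regions that strong in control chow were called, and the limit of 10 was chosen with earlier results known. The 2 diet calls at Csf1 were at or under 6.87, and Il34 had 0. In the tissue comparison the extended windows of Csf1r and Il34 had fewer regions in the dLGN, and that of Csf1 overlapped. No adjusted p was under 0.05, and with so few libraries and so many tied p-values none could be. Whether the receptor differed from the ligands in its response to the diet was not tested.

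The pathway around the receptor was described with lists of genes. Among 13 class III receptor tyrosine kinases and their ligands, which include the 3 genes, 0 had more regions and 1 had fewer in both PLX chow libraries, beside 8.99% and 8.34% of all genes. The 1 with fewer was Pdgfb, a ligand of the platelet-derived growth factor receptors, with 6 ± 1.41 regions in PLX chow and 9 ± 1.41 in control chow (SD, n = 2 each; exact permutation p = 0.33). In the dLGN 1 had more regions than any section and 3 had fewer, beside 6.74% and 9.99% of all genes. The 1 with more was Pdgfd, another such ligand, with 18.8 ± 3.10 in the dLGN and 8.25 ± 3.59 in the sections (SD, n = 4 each; exact permutation p = 0.0286, adjusted 0.171), and Csf1r and Il34 were 2 of the 3 with fewer. Between the genotypes 1 had more and 5 had fewer regions in both KO libraries, beside 16.4% and 11.6% of all genes. The median difference of the list was −0.5 regions for the diet, −0.75 for the tissue and −0.5 for the genotype, beside 0, −0.25 and 0 over all genes.

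Among 25 genes of CSF1R signalling and its regulation, 2 had more and 2 fewer regions in both PLX chow libraries, near the 8.99% and 8.34% of all genes. Fyn, a Src-family kinase gene, had 66 ± 1.41 in PLX chow and 61 ± 0 in control chow, and Grb2, an adaptor gene, had 9.5 ± 0.71 in PLX chow and 8 ± 0 in control chow (SD, n = 2 each; exact permutation p = 0.33 for both). Pik3cd, a phosphoinositide 3-kinase subunit gene, had 9.5 ± 0.71 in PLX chow and 12 ± 1.41 in control chow, and Runx1, a transcription factor gene, had 17.5 ± 0.71 in PLX chow and 19.5 ± 0.71 in control chow (SD, n = 2 each; exact permutation p = 0.33 for both). Against the sections 0 had more and 5 fewer regions in all 4 dLGN libraries, beside 6.74% and 9.99% of all genes. Inpp5d, which encodes the phosphatase SHIP1 of blood and microglial cells, had 6.75 ± 1.89 in the dLGN and 24.2 ± 2.87 in the sections, and Grb2 had 8.75 ± 0.96 in the dLGN and 15.8 ± 2.22 in the sections (SD, n = 4 each; exact permutation p = 0.0286 and adjusted 0.171 for both). Spi1, the PU.1 gene, was also among the 5. Between the genotypes 4 had more and 1 had fewer regions in both KO libraries, beside 16.4% and 11.6% of all genes. The median differences were 0 for the diet, −0.5 for the tissue and 1 for the genotype.

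Ptprz1 and Sdc1 encode a receptor phosphatase and a syndecan that have been reported to bind interleukin-34. Sdc1 had 15.5 ± 0.71 regions in PLX chow and 12 ± 0 in control chow (SD, n = 2 each; exact permutation p = 0.33). Ptprz1 had 32.2 ± 0.96 in the dLGN and 24.5 ± 4.65 in the sections (SD, n = 4 each; exact permutation p = 0.0286, adjusted 0.171). No gene of these lists had an adjusted p under 0.05. The diet and tissue comparisons share the 4 dLGN libraries.

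The covered length in each window was also compared with that of 19028 other genes across the 8 libraries, as a Pearson correlation of log2(bp + 100) in the equal lists. The libraries share their depth and list strength across genes, so these values are descriptions only. Csf1r, with 1523 and 516 bp in PLX chow, 1987 and 2231 bp in control chow and 2522 to 3435 bp in the sections, was most like 4930591A17Rik (r = 0.99), Plekha3 (r = 0.98), a phosphoinositide-binding protein gene, and Sem1 (r = 0.97), a proteasome subunit gene. Csf1, with 3151 to 4222 bp in the dLGN and 3720 to 5211 bp in the sections, was most like Sap30l (r = 0.98), a corepressor subunit gene, Brcc3 (r = 0.97), a deubiquitinase gene, and Zdhhc20 (r = 0.97), a palmitoyltransferase gene. Il34, with 3935 to 4837 bp in the dLGN and 5822 to 8331 bp in the sections, was most like Rapgef4, a Rap exchange factor gene, Zfp326, a zinc finger gene, and Dtnb, the beta-dystrobrevin gene (r = 0.997 for Rapgef4, 0.996 for Zfp326 and 0.995 for Dtnb).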

How the data were processed

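ATAC-seq peak lists of 8 libraries, 2 per group as labelled, were used. Per the deposited pipeline instructions, the authors ran the ENCODE pipeline for ATAC-seq against mm10 with a multimapping value of 0 and called peaks at p = 0.01; the list names record a limit of 300000 peaks. The submitters' processing notes name deepTools 3.5.0. Aligner and peak caller were not given in the sources used here. Each sample has its own peak calls. Each deposited peak has the authors' fold enrichment (a ratio), its p-value and q-value as −log10, and a score, which served here only for description, ranking and filtering within 1 list. Sequencing depth is unknown, so no counting interval is given.

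Peaks that overlap within a library were merged, each region keeping its highest −log10 p, and lists were cut to 192168 regions. Genes came from RefSeq's table for GRCm38.p6, matched by symbol (all 85 listed genes matched), without strand or exons. Region counts per window and percentile ranks were compared by 2-sided exact permutation tests over libraries, run for all genes or all regions and adjusted by the Benjamini-Hochberg method with a threshold of 0.05. The rank test used the region over the gene start. Where strand was not given, it used the region with the highest mean percentile rank in the gene body or within 1 kb of it. P-values measure the spread between these libraries, which may be technical. Named genes were the 3 genes, protein-coding genes overlapping their windows, from each pathway list the 2 genes per direction with the largest difference among those without overlap between diets or tissues, and the 3 genes most alike in covered length over the libraries (a region in at least 4). Spi1, Trem2, Gpr34, Fcrls, P2ry12, Siglech and Itgam were named after their values were seen. The genes, lists and tests were chosen with earlier results of these data known. Alternatives were lists of 100000 or 50000 regions or all deposited peaks, a q limit of 0.05, other windows, unmerged peaks, ranking by fold, a stricter overlap or strength, a replicate block and leaving out each library. Python 3.11.15 with numpy 2.4.6 and matplotlib 3.10.9 was used, and the tests were tested on simulated data.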

Additional observations from a re-analysis of the deposited data

Results flagged for a closer look

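At Il34 control chow 2 had 13 regions, the highest of the dLGN libraries, where the other 3 each had 11. In the sections WT 2 had 15 regions at Il34, the lowest, where the other 3 each had 17. In both sets the gap to the nearest library was the whole range of the set, above Dixon's critical value for 4 samples. With the other 3 counts tied, a gap of any size would pass it. On continuous values chance flags about 1 in 20 groups, and for tied counts this rate need not hold. Without control chow 2 and without WT 2 the Il34 counts of the dLGN and the sections still did not overlap.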

How the results depend on the processing

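No comparison of region counts or ranks had an adjusted exact permutation p under 0.05 in the reported values or under any alternative run, so the alternatives bear on direction and size. At Csf1r the dLGN minus section count difference was −4.25 and ran from −6.5 (unmerged peaks) to −0.25 (50000 strongest regions), and at Il34 it was −5 and ran from −7.75 to −2 under the same settings. Leaving out 1 library gave −4.67 to −3.33 at Csf1r and −5.5 to −4.83 at Il34. The PLX chow minus control chow count at Csf1 reversed to −1 with 100000 regions, with 50000 regions and with unmerged peaks, and to −0.5 in the gene body alone, and the Il34 count to 1 in the gene body alone. The KO minus WT count at Csf1 reversed to 0.5 with 100000 regions. Ranked by fold, the Csf1 start region reversed to 0.24 between dLGN and sections. The causes were not tested.

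Leaving out 1 library gave PLX chow minus control chow counts of −3.5 to 0.5 at Csf1r, with 0.5 without PLX chow 2. It gave PLX chow minus section counts of −2.75 to 0.25 at Csf1, with 0.25 without PLX chow 1. Rank differences between the diets then ran from −2.98 to 0.79 at Csf1 and from −14.8 to 6.16 at Il34, and those between KO and WT from −7.07 to 2.41 at Csf1r and from −1.05 to 10.96 at Il34. The rank test between dLGN and sections over regions present in all 8 libraries gave no value for Csf1r, since no region in the gene body or within 1 kb of it was present in all 8.

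The number of Csf1r regions called for control chow against PLX chow was 1 under every alternative run that kept both libraries of each group. With 1 library left out the calls for PLX chow were 0 to 3 at Csf1r, 1 to 3 at Csf1 and 0 to 2 at Il34, and those for control chow 1 to 5 at Csf1r, 1 to 3 at Csf1 and 0 to 4 at Il34. For KO they were 1 to 5 at Csf1r, 0 to 2 at Csf1 and 2 to 8 at Il34, and for WT 0 to 3 at Csf1r, 0 to 2 at Csf1 and 0 to 2 at Il34. For the dLGN Il34 had 0 to 1, and for the sections Csf1r had 0 to 1 and Il34 1 to 3. With a −log10 p of at least 5 or at least 10 where present, 0 calls were left for Csf1 in both diets, in the dLGN and in the sections, for Csf1r and Il34 in KO and for Il34 in the sections. With windows of 50 kb there were 2 calls for KO at Csf1 and 2 at Il34, 1 for the dLGN at Il34, and for the sections 1 at Csf1r and 2 at Il34. In the gene body alone 0 were left for the sections at Csf1 and Il34. With equal lists 1 was called for the sections at Csf1r, added after seeing the data. In all, 372 values under alternatives kept their direction and size class, 60 moved and 15 reversed.

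In a fit blocked by replicate number the smallest possible p was 0.5, and no difference or call changed (Csf1 count in KO minus WT −4.5, p = 0.5 by exact sign flips). Deviations of same-numbered libraries correlated at −0.03 between the diets and 0.18 between the genotypes, and with 2 pairs the numbers were taken as names only. Where depth is unknown, an absent peak says only that none passed the authors' threshold.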

Other observations

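The marker lists of other cell types, as summed regions in the equal lists, were as follows between the dLGN and the sections. Astrocyte markers (5 genes) had 103 to 119 regions in the dLGN and 127 to 144 in the sections, and oligodendrocyte markers (5 genes) had 65 to 68 in the dLGN and 71 to 82 in the sections. Pericyte markers (5 genes) had 26 to 33 in the dLGN and 19 to 22 in the sections. Endothelial markers (5 genes) had 25 to 37 in the dLGN and 25 to 39 in the sections, and thalamic neuron markers (5 genes) had 198 to 212 in the dLGN and 166 to 234 in the sections. Between the diets astrocyte markers had 103 to 119 regions in PLX chow and 110 to 117 in control chow, and pericyte markers 26 to 33 in PLX chow and 31 in each control chow library. Oligodendrocyte markers had more regions under PLX chow, with 68 in each library against 65 to 66 in control chow. The sums of the endothelial, neuron, thalamic neuron and cortical or hippocampal neuron markers overlapped between the diets.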
